A study of Mus musculus with 12 samples.

Results

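Chromatin accessibility was examined at the genes for dual-specificity phosphatases and protein tyrosine phosphatases in thymic invariant natural killer T (iNKT) cells. The genes were the protein-coding GENCODE vM21 genes whose symbol begins with Dusp, Ptpn or Ptpr, without Ptpn6, Ptpn22 and Ptprc, which made 59 of 21924 protein-coding genes. Regions of the deposited table that overlapped a gene body or the 10 kb on either side of it were assigned to the gene. Of the 59 genes, 50 had a region, and together they held 325 of 63309 regions, each 500 bp long. Dusp21, Dusp27, Ptpn20, Ptprd, Ptprg, Ptprm, Ptpro, Ptprq and Ptprz1 had none. The rule also takes in Ptprcap, a CD45-associated protein that is not a phosphatase, with 4 regions.

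Omni-ATAC-seq, which reads open chromatin from the insertions of the Tn5 transposase, was done on untreated thymocytes of mice aged 8 to 9 weeks. The 6 groups were iNKT1, iNKT2 and iNKT17 cells of wild-type C57BL/6 mice and of Hivep3-/- mice, deficient in the zinc finger protein Hivep3, with 2 libraries per group. Thymi were pooled within a genotype. The subsets were sorted as CD122+ ICOS- (iNKT1), CD122- ICOS+ Izumo1r+ CD138- (iNKT2) and CD122- ICOS+ Izumo1r- CD138+ (iNKT17) cells, combined for transposition and then separated again by ICOS and CD138. Values are log2 normalized insertions per kb, so a difference of 1 is a 2-fold change.

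Dual-specificity phosphatases remove phosphate from threonine and tyrosine residues, and the typical members act on MAP kinases. Several of them (Dusp1, Dusp2, Dusp4, Dusp5) are nuclear enzymes whose genes are switched on by antigen receptor or growth factor signals, so that they limit the signal that induced them. Non-receptor and receptor-type tyrosine phosphatases act on phosphotyrosine, and in T cells they set how strongly Src-family kinases, cytokine receptors and MAP kinases respond. iNKT cells are selected in the thymus by strong antigen receptor signals.

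A region was tested in a comparison when its linear mean reached 5 in a compared group, and it was called at a Benjamini-Hochberg adjusted p under 0.1 in limma and a change of at least 3-fold, the study's thresholds. "Higher" and "lower" below refer to these calls unless an adjusted p at any fold is named. The assigned regions were 42.5% promoters, 9.23% exonic, 35.7% intronic and 12.6% intergenic, against 38.1%, 6.77%, 32.3% and 22.8% of all regions. For 277 of the 325 regions the nearest protein-coding start was that of a Dusp, Ptpn or Ptpr gene. The most regions were held by Ptpn1 (20), Ptprj (19), Ptpn5 (17) and Dusp5 (15).

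The stretches below are the central 300 bases of the regions on which the results turn, from the plus strand of GRCm38.p6 (mm10). The Ptprj stretch (chr2:90463822-90464121, intronic) comes from the region with the largest rise in Hivep3-/- iNKT1 and the largest fall in Hivep3-/- iNKT2 cells. The Dusp5 stretch (chr19:53544190-53544489, downstream of the gene) and the Ptpn5 stretch (chr7:47091297-47091596, at an internal promoter) come from the largest rise and the largest fall in Hivep3-/- iNKT17 cells. The Ptpre (chr7:135591521-135591820), Ptprb (chr10:116293989-116294288) and Ptpn4 (chr1:119770612-119770911) stretches, all intronic, come from the regions most specific to C57BL/6 iNKT1, iNKT2 and iNKT17 cells. Capitals mark matches to the 8 motifs searched on both strands, NF-kB (GGANTTTCC), T-box (AGGTGTGA), Runt (AACCACA), ETS (CAGGAAGT), TCF (TCAAAGG), NFAT (TTTTCCA), Egr (GCGTGGG) and bZIP (TGANTCA), none of which contains another.
Ptprj: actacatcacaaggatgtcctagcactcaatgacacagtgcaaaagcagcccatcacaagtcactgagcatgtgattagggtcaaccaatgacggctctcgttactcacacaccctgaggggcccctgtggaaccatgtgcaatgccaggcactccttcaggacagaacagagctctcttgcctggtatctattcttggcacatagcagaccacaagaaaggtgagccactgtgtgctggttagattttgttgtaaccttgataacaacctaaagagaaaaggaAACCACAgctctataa
Dusp5: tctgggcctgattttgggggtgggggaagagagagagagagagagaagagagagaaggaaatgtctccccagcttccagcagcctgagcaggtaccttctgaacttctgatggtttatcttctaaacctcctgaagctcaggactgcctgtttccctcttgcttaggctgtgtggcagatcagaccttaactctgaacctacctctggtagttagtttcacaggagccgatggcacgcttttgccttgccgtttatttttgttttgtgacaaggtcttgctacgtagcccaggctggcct
Ptpn5: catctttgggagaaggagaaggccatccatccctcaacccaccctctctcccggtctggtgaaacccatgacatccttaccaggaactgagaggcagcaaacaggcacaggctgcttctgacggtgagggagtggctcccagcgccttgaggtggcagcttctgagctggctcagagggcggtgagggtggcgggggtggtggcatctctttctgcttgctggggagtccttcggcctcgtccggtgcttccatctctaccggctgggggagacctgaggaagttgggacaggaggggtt
Ptpre: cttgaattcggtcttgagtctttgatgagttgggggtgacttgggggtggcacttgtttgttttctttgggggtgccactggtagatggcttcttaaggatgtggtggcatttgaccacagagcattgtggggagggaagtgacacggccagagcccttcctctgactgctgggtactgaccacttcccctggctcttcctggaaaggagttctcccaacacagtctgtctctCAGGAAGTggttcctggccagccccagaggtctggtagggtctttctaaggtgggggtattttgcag
Ptprb: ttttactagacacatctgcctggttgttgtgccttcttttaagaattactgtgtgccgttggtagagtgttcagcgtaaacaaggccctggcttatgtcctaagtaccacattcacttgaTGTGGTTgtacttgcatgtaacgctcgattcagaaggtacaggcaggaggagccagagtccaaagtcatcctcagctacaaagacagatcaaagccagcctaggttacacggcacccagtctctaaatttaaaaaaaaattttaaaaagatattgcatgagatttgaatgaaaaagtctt
Ptpn4: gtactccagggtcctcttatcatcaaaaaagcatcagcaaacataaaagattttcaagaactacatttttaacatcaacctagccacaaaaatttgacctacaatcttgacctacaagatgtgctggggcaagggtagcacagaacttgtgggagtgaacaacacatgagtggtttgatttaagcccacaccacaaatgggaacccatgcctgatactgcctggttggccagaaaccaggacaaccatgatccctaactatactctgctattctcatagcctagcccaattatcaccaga
The Ptprj and Ptprb stretches each held 1 Runt match, letters found in 17.4% of all regions. The Ptpre stretch held 1 ETS match (9.87% of all regions). The full Ptpre region also held an NF-kB match that is not contained in the stretch (2.45% of all regions). These shares were counted over the full 500 bp of each region, so they are higher than shares for 300 bases would be. The Dusp5, Ptpn5 and Ptpn4 stretches held none of the 8 motifs.

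The sorted subsets were checked at the promoters of fixed markers. Nkg7 and Xcl1 were most open in iNKT1, Izumo1r, Il4 and Ccr7 in iNKT2, and Il23r, Sdc1 and Il17a in iNKT17 libraries of both genotypes, whereas Il2rb (CD122) was most open in iNKT17 cells and Icos differed little. No promoter region was listed for Rag1, Rag2, Cd8b1, Ms4a1, Csf1r, Lyz2 or Itgax, which mark double-positive thymocytes, B cells and myeloid cells. None of the 21 regions at Hivep3 was called between the genotypes in any of the 3 subsets, and the part of the gene that is deleted is not given in the labels. Depth is unknown because the normalization fixes the library sums, but the number of regions at a library's lowest value moved with genotype. It was 584 to 699 in C57BL/6 and 144 to 386 in Hivep3-/- iNKT1 libraries, 178 to 269 against 459 to 601 in iNKT2 and 190 to 272 against 571 to 816 in iNKT17 libraries.

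The phosphatase genes were first compared between the subsets of C57BL/6 mice. Introns of Ptpre were open in iNKT1 cells, 3 Ptprb regions in iNKT2 cells, and introns of Ptpn4, Dusp16 and Dusp12 in iNKT17 cells. Ptprj, Dusp2, Ptpn14 and Ptpn5 had several regions that were closed in iNKT17 cells, although a Ptpn5 exon was open there. Between iNKT1 and iNKT2 cells, 20 of 306 tested regions were higher and 22 were lower in iNKT1 cells, against 7.33% and 8.71% of all tested regions. Between iNKT1 and iNKT17 cells, 46 of 307 were higher and 22 lower in iNKT1 cells (all regions, 9.72% and 10.8%). Between iNKT2 and iNKT17 cells, 36 of 306 were higher and 15 lower in iNKT2 cells (7.72% and 8.49%). Together, 93 regions at 29 of the genes were called in at least 1 of these comparisons.

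The called regions lay mostly in introns. In the iNKT1 and iNKT17 comparison, 42 of 103 tested intronic regions (40.8%) and 10 of 136 promoter regions (7.35%) were called, where 29.6% of all intronic and 7.95% of all promoter regions were. For iNKT1 against iNKT2 cells the counts were 26 of 104 (25.0%) and 5 of 134 (3.73%), against 23.2% and 5.71% of all such regions. More calls in introns than in promoters was thus a feature of the whole table.

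**Figure D1:**
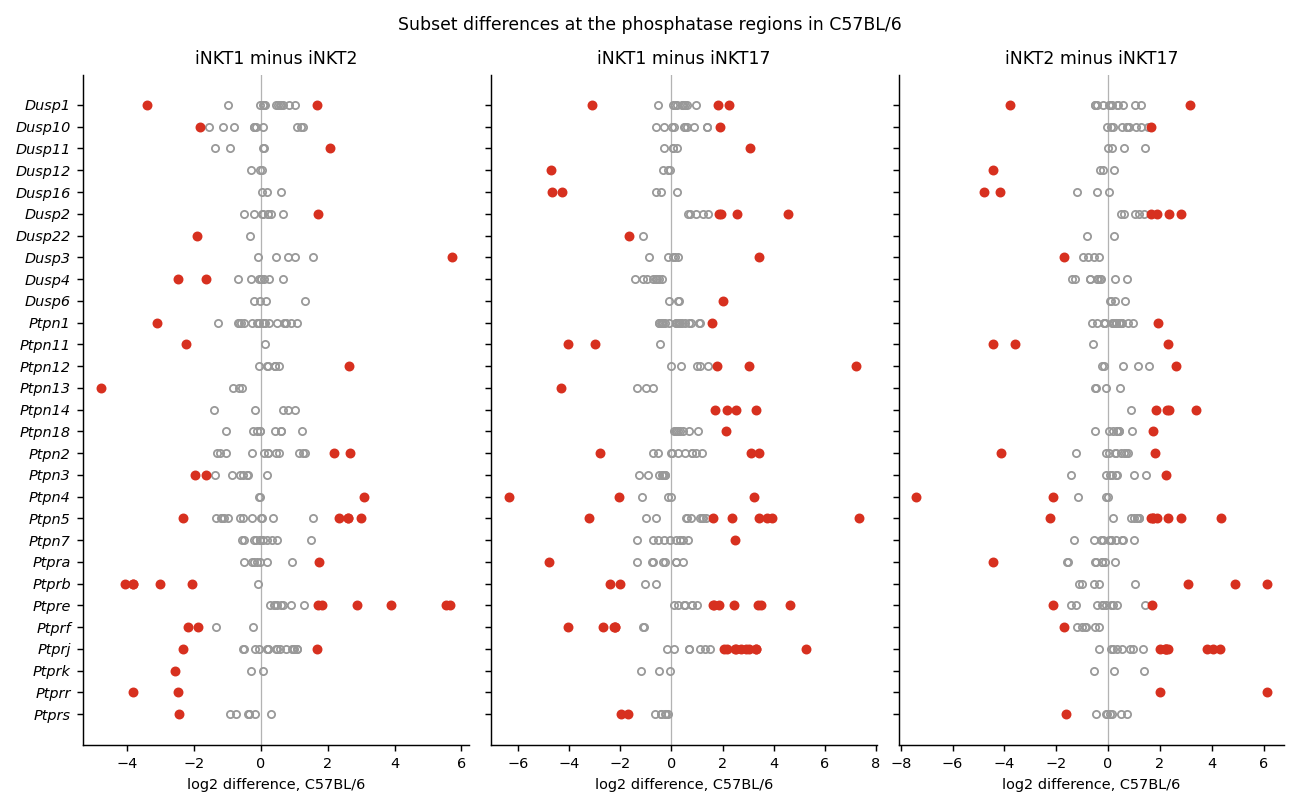
Each point is 1 tested region of the 29 genes with a called region in C57BL/6 mice, by the log2 difference between a pair of subsets (x axis); filled points were called. The filled points of Ptpre lie to the right of 0 in both panels that hold iNKT1 cells, those of Ptprj lie to the right in both panels that hold iNKT17 cells, and those of Ptprf lie to the left in all 3 panels.

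Dusp2, an inducible nuclear phosphatase of MAP kinases, had 4 regions that were closed in iNKT17 cells against both other subsets. All 9 tested Dusp2 regions had a higher value in iNKT1 than in iNKT17 cells, and 4 were called. The region 3 kb upstream of the start (chr2:127332629-127333128) had log2 values of 5.65 and 5.85 in C57BL/6 iNKT1, 4.12 and 3.94 in iNKT2, and 1.10 and 1.31 in iNKT17 libraries. The subsets did not overlap, and the iNKT1 to iNKT17 difference was 4.55 (SE 0.25, adjusted p = 1.14e-08). The 3 other Dusp2 regions called between iNKT1 and iNKT17 cells were also called between iNKT2 and iNKT17 cells.

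Dusp1, a nuclear phosphatase that acts mainly on JNK and p38, had regions called in opposite directions. Its annotated body of 56.5 kb follows a long transcript and overlaps the start of Ergic1, and 10 of its 14 regions lay nearest to a Dusp1 start. The region 29 kb inside its long gene model (chr17:26532649-26533148) had values of 7.31 and 7.31 in C57BL/6 iNKT1, 5.65 and 5.58 in iNKT2 and 4.95 and 5.13 in iNKT17 libraries, and it was higher in iNKT1 than in either other subset. The region at the start of the long transcript (chr17:26562316-26562815), which also lies close to the Ergic1 start, was open in iNKT17 cells instead, at 5.80 and 5.89 against 2.75 and 2.74 in iNKT1 and 2.41 and 1.74 in iNKT2 libraries. It was higher in iNKT17 cells by 3.10 (SE 0.26, adjusted p = 3.9e-07) than in iNKT1 and by 3.77 (SE 0.26, adjusted p = 1.39e-07) than in iNKT2 cells. Dusp4, an inducible nuclear phosphatase of ERK and JNK, had 2 regions lower in iNKT1 than in iNKT2 cells, by up to 2.49 (SE 0.39, adjusted p = 0.000151), and Dusp5 had none called between any pair of subsets.

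The phosphatases of JNK and p38 kinases held 21 regions and the atypical members 37. Of the former, 1 of 20 tested regions was higher and 2 were lower in iNKT1 than in iNKT17 cells. Of the latter, 2 of 36 were higher and 2 lower (all regions, 9.72% and 10.8%). Dusp16, which acts on JNK, had 2 intronic regions open in iNKT17 cells. At chr6:134786331-134786830 the values were 6.17 and 6.31 in iNKT17 against 1.91 and 2.03 in iNKT1 and 2.49 and 1.66 in iNKT2 libraries. Dusp10, which acts on p38 and JNK, had 1 region lower in iNKT1 than in iNKT2 cells, 1 higher in iNKT1 than in iNKT17 cells and 1 higher in iNKT2 than in iNKT17 cells. Of the cytoplasmic ERK phosphatases, only Dusp6 had a called region, downstream of the gene and higher in iNKT1 than in iNKT17 cells (2.00, SE 0.21, adjusted p = 2.96e-06).

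Dusp3 and Dusp11 had a flanking region each that was open in iNKT1 cells. The one at Dusp3 (chr11:101962143-101962642) was nearest to the start of Sost, a neighbouring gene. Its values were 5.15 and 4.93 in iNKT1, -0.78 and -0.55 in iNKT2 and 1.66 and 1.60 in iNKT17 libraries, and the iNKT1 to iNKT2 difference of 5.71 (SE 0.25, adjusted p = 1.02e-08) was larger than at any other Dusp, Ptpn or Ptpr region in that comparison. Dusp22, which acts in antigen receptor signalling, had an intron that was lower in iNKT1 than in iNKT2 cells (-1.91, SE 0.19, adjusted p = 3.67e-06). Dusp12 had an intronic region called higher in iNKT17 cells against both other subsets.

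Among the non-receptor phosphatases, Ptpn12, Ptpn4 and Ptpn5 had regions that separated the subsets widely. Ptpn12, which dephosphorylates adaptor proteins of the cytoskeleton, had an intronic region (chr5:21043629-21044128) at 4.82 and 4.95 in iNKT1, 2.49 and 2.03 in iNKT2 and -2.41 and -2.29 in iNKT17 libraries, a difference of 7.23 between iNKT1 and iNKT17 cells (SE 0.34, adjusted p = 3.19e-09). Ptpn4, a phosphatase with a PDZ domain, had the region most specific to iNKT17 cells (chr1:119770512-119771011). It stood at 4.28 and 4.35 in iNKT17 libraries, -1.72 and -2.39 in iNKT1 and -2.39 and -3.79 in iNKT2 libraries. It was higher in iNKT17 than in iNKT1 cells by 6.37 (SE 0.64, adjusted p = 2.06e-06) and than in iNKT2 cells by 7.40 (SE 0.64, adjusted p = 9.42e-07). The levels of the other two subsets lay close to the lowest of a library, where the size of a difference is least certain. Another Ptpn4 intron was open in iNKT1 cells, with differences of 3.08 against iNKT2 and 3.21 against iNKT17 cells.

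Ptpn5, a tyrosine phosphatase of MAP kinases known mainly from neurons, had 17 regions, 11 of which were called between at least 1 pair of subsets. At the internal promoter 20 kb from its start (chr7:47113291-47113790) the values were 5.40 and 5.73 in iNKT1, 2.70 and 2.47 in iNKT2 and -1.91 and -1.65 in iNKT17 libraries. The 3 subsets stood in this order without overlap, 2.98 apart between iNKT1 and iNKT2 (SE 0.47, adjusted p = 0.000156) and 7.34 apart between iNKT1 and iNKT17 cells (SE 0.47, adjusted p = 3.76e-08). The internal promoter 42 kb from the start (chr7:47091197-47091696) was highest in iNKT2 cells instead, at 4.47 and 4.44 against 2.15 and 2.10 in iNKT1 and 2.92 and 2.51 in iNKT17 libraries. An exon at chr7:47082975 was called higher in iNKT17 cells than in both other subsets. Its difference was -3.215 for iNKT1 minus iNKT17 and -2.233 for iNKT2 minus iNKT17 cells.

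Ptpn13, a large phosphatase with PDZ domains, had an intronic region (chr5:103442081-103442580) that was closed in iNKT1 cells. Its values were -0.42 and -1.01 in iNKT1, 4.43 and 3.70 in iNKT2 and 3.62 and 3.59 in iNKT17 libraries, and iNKT1 cells were below iNKT2 cells by 4.78 (SE 0.47, adjusted p = 3.22e-06). The remaining called regions of this class included 2 of Ptpn3, lower in iNKT1 than in iNKT2 cells, and 1 of Ptpn1 upstream of the gene that was also lower in iNKT1 cells (-3.10, SE 0.37, adjusted p = 1.66e-05). Ptpn18 had 1 region higher in iNKT1 and another higher in iNKT2 cells, each against iNKT17 cells.

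Ptpn11, an activator of ERK signalling downstream of many receptors, had 2 regions open in iNKT17 cells and 1, nearest to the start of Rpl6, open in iNKT2 cells. Ptpn2, which dephosphorylates JAK and STAT proteins, had 2 upstream regions open in iNKT1 and 1 open in iNKT17 cells. All 4 tested Ptpn14 regions were higher in iNKT1 than in iNKT17 cells (1.72 to 3.31). Ptpn7, a MAP kinase phosphatase of blood cells, had 1 of 11 tested regions called, an intron higher in iNKT1 than in iNKT17 cells (2.47, SE 0.30, adjusted p = 9.71e-06).

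Among the receptor-type genes, Ptpre and Ptprj were most often called. Ptpre encodes a phosphatase with receptor and cytosolic forms. All 14 of its tested regions had a higher value in iNKT1 than in iNKT2 cells, and 6 were called. At the region printed above (chr7:135591421-135591920) the values were 3.56 and 3.50 in iNKT1, -1.59 and -2.69 in iNKT2 and 0.06 and -2.29 in iNKT17 libraries. The differences were 5.67 against iNKT2 (SE 0.91, adjusted p = 0.000177) and 4.64 against iNKT17 cells (SE 0.91, adjusted p = 0.00066). The intron at chr7:135588523-135589022 was more open, at 6.29 and 6.44 in iNKT1 and 1.06 and 0.61 in iNKT2 libraries, a difference of 5.53 (SE 0.32, adjusted p = 5.03e-08). This intron was also called higher in iNKT17 than in iNKT2 cells, with an iNKT2 minus iNKT17 difference of -2.145.

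Ptprj encodes CD148, a transmembrane phosphatase that acts on Src-family kinases. Of 17 regions tested between iNKT1 and iNKT17 cells, 10 were higher in iNKT1 cells and none was lower, and 15 differed in that direction at an adjusted p under 0.1 at any fold. Between iNKT2 and iNKT17 cells 8 of 16 were higher in iNKT2 cells. At the intron 16 kb from the start (chr2:90564469-90564968) the values were 5.88 and 5.95 in iNKT1, 4.97 and 4.94 in iNKT2 and 1.10 and 0.20 in iNKT17 libraries, and the iNKT1 to iNKT17 difference was 5.26 (SE 0.26, adjusted p = 4.26e-09).

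Ptprb and its neighbour Ptprr, phosphatases known from the endothelium and from neurons, shared a region at chr10:116270385-116270884. It was open in iNKT2 cells, at 4.20 and 3.85, against -0.42 and 0.82 in iNKT1 and -1.91 and -2.29 in iNKT17 libraries. The Ptprb intron printed above (chr10:116293889-116294388) was likewise open in iNKT2 cells, at 3.88 and 4.19 against -0.94 and 0.91 in iNKT1 and -0.59 and -1.15 in iNKT17 libraries, by 4.05 over iNKT1 (SE 0.65, adjusted p = 0.000189) and 4.90 over iNKT17 cells (SE 0.65, adjusted p = 3.7e-05). Ptprf, a receptor for cell adhesion, went the other way from Ptpre. All 7 of its regions tested between iNKT1 and iNKT17 cells differed at an adjusted p under 0.1 toward iNKT17 cells, 5 of them by at least 3-fold. Ptprs and Ptprk each had 1 intron that was lower in iNKT1 than in iNKT2 cells, by 2.44 and 2.56 (SE 0.22, adjusted p = 1.43e-06 and SE 0.21, adjusted p = 8.46e-07). Ptpra, which activates Src-family kinases, had an internal promoter open in iNKT17 cells (chr2:130532186-130532685), at 5.55 and 5.17 against 0.67 and 0.49 in iNKT1 and 1.00 and 0.84 in iNKT2 libraries.

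Regions called against both other subsets in the same direction were counted next. In C57BL/6 mice 18 of 292 regions (6.16%) were open in iNKT1 cells. The same count was 10 of 291 (3.44%) for iNKT2 and 13 of 292 (4.45%) for iNKT17 cells. These shares stood against 5.26%, 3.87% and 6.86% of all tested regions. Closed in iNKT17 cells were 20 of 292 (6.85%), against 2.68% of all regions, and closed in iNKT1 cells 6 of 292 (2.05%), against 2.99%. The 20 regions belonged to Ptprj (7), Ptpn5 (4), Dusp2 (4), Ptpn14 (3), Ptpn12 (1) and Ptpre (1).

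The same comparisons were made in the libraries of Hivep3-/- mice. Between iNKT1 and iNKT2 cells 33 of 304 regions were higher and 20 lower in iNKT1 cells (all regions, 8.77% and 8.54%). Between iNKT1 and iNKT17 cells 45 of 305 were higher and 23 lower (9.48% and 9.83%), and between iNKT2 and iNKT17 cells 25 of 296 were higher and 18 lower (7.33% and 8.25%). Open against both other subsets were 28 regions of iNKT1 cells, and the lists of iNKT2 and iNKT17 cells held 11 and 12 (all regions, 6.11%, 3.86% and 6.29%). For iNKT1 cells 16 regions were shared with C57BL/6 mice (88.9% of the C57BL/6 and 57.1% of the Hivep3-/- list), for iNKT17 cells 11 (84.6% and 91.7%) and for iNKT2 cells 4 (40.0% and 36.4%). Over all regions the shared lists were 78.8% and 67.5% for iNKT1, 81.2% and 89.3% for iNKT17 and 54.4% of either list for iNKT2 cells. Closed in iNKT17 cells were 8 of 282 regions, against 1.83% of all, and 7 of these were among the 20 of C57BL/6 mice (35.0% and 87.5% of the lists, against 39.0% and 57.6% over all regions).

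**Figure D2:**
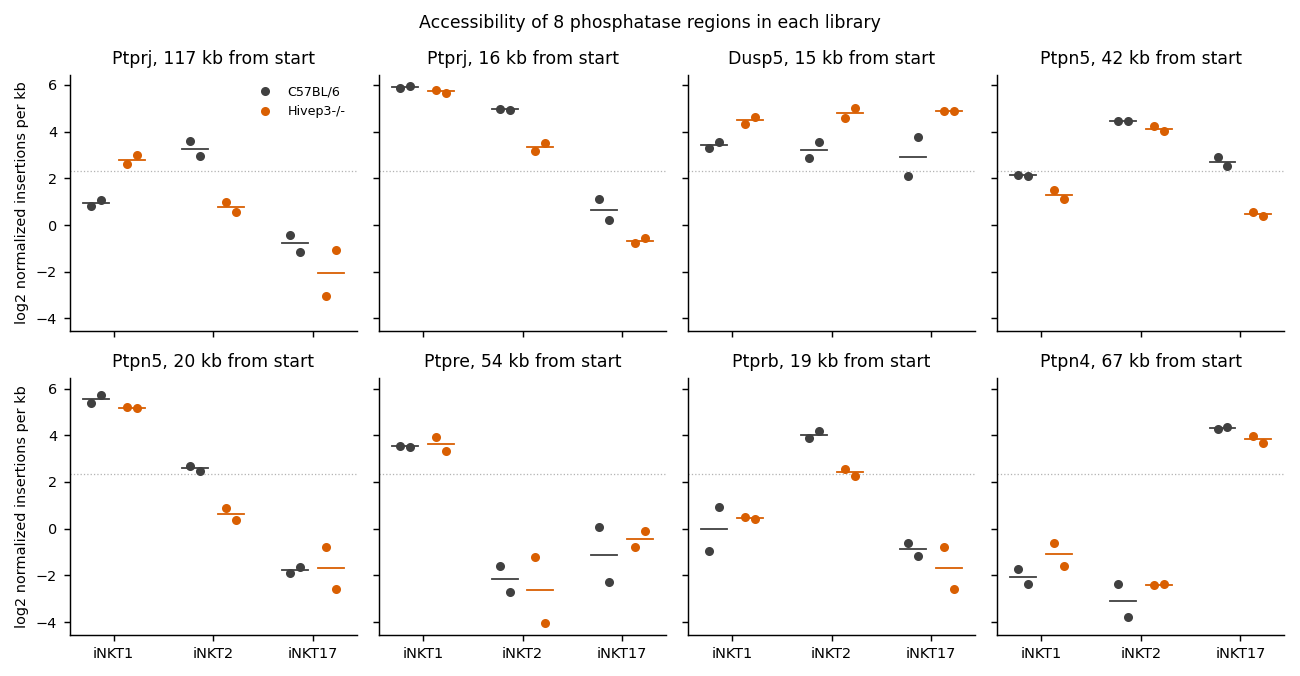
Points are single libraries and bars group means of 8 regions by subset, in log2 normalized insertions per kb; the dotted line is a linear value of 5. Ptpn4 was above the line in iNKT17 libraries only and Ptpre in iNKT1 libraries only, whereas the Ptprj region 117 kb from the start stood above it in C57BL/6 iNKT2 and Hivep3-/- iNKT1 libraries.

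The genotypes were then compared within each subset. Few regions changed by 3-fold. In iNKT1 cells 2 Ptprj regions rose, in calls that were lost when any 1 iNKT1 library was left out. Ptprj, Ptprb and Ptpn5 regions fell in iNKT2 cells, and in iNKT17 cells Dusp5 regions rose and a Ptpn5 region fell. In Hivep3-/- iNKT1 cells 2 of 284 tested regions were higher and 0 lower, against 0.89% and 0.264% of all regions. In iNKT2 cells 0 of 290 were higher and 5 lower (0.474% and 1.2%), and in iNKT17 cells 3 of 273 were higher and 1 lower (0.133% and 0.138%). The unadjusted limma p was under 0.05 for 55, 75 and 58 regions in the respective subsets and for 99 on average over the subsets. The share of all regions at that unadjusted p was not counted, so these counts have no background to be read against. On average over the subsets limma called 0 of 325 regions (all regions, 0.529% called). The fit of this average counted the 12 libraries as independent, although the subsets of a pool were transposed together. Its p-values here and below may therefore be too small, and no fit left out a whole pool. At an adjusted p under 0.1 and any fold, 29 (10.2%), 47 (16.2%) and 18 (6.59%) regions differed in the respective subsets and 73 (22.5%) on average, against 9.42%, 16.4%, 4.65% and 19.7% of all regions. The shares lay near the background in iNKT1 and iNKT2 cells and on average, and the iNKT17 share rests on 18 regions. With a pseudocount of 5, a constant added to the linear value before the logarithm, none of the phosphatase regions was called between the genotypes in any subset, and with a pseudocount of 1 the counts were 0, 1 and 2 in iNKT1, iNKT2 and iNKT17 cells.

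Dusp5, a nuclear phosphatase specific to ERK, was higher across much of its locus in Hivep3-/- cells on average over the subsets. Of its 15 regions, 10 were higher in Hivep3-/- cells on average at an adjusted p under 0.1 and none was lower, with a median difference over the 15 regions of 0.47. In iNKT2 cells 8 of 15 rose at that threshold, and 3 to 7 of these 8 did so without single libraries. In iNKT1 cells 3 rose and 1 fell, and in iNKT17 cells 4 rose and 0 fell. The 3 regions 15 to 16 kb from the start, downstream of the gene, were called in iNKT17 cells. At chr19:53544090-53544589 the iNKT17 values were 2.09 and 3.76 in C57BL/6 and 4.90 and 4.89 in Hivep3-/- libraries, at a difference of 1.97 (SE 0.40, adjusted p = 0.0243). The genotypes did not overlap in any subset, since the values were 3.29 and 3.54 against 4.32 and 4.65 in iNKT1 and 2.87 and 3.56 against 4.56 and 5.02 in iNKT2 libraries. The difference was 1.58 in iNKT2 (SE 0.40, adjusted p = 0.0232) and 1.07 in iNKT1 cells (SE 0.40, adjusted p = 0.154).

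The neighbours chr19:53545118-53545617 and chr19:53543398-53543897 rose by 1.70 (SE 0.33, adjusted p = 0.0194) and 1.60 (SE 0.38, adjusted p = 0.0449) in iNKT17 cells. Without C57BL/6 iNKT17 replicate 1 the 3 differences were 1.13, 1.10 and 0.92 (adjusted p 0.145, 0.156 and 0.348), and the calls were also lost without Hivep3-/- iNKT17 replicate 2. The average over the subsets at these 3 regions was 1.54 (SE 0.23, adjusted p = 0.00101), 1.28 (SE 0.19, adjusted p = 0.000904) and 1.25 (SE 0.22, adjusted p = 0.00242). These limma p-values count the subsets of a pool as independent. The 3 regions were also chosen by their iNKT17 calls, and the average includes the same iNKT17 libraries. It is therefore not separate support for those calls. When each of the 12 libraries was left out in turn, 8 to 10 of the 10 Dusp5 regions were still higher on average, and in 2 of these fits 1 other region was lower. No Dusp5 promoter region differed at an adjusted p under 0.1 in any subset.

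Dusp1 went the other way by smaller amounts. Of its 14 regions, 9 were lower in Hivep3-/- cells on average at an adjusted p under 0.1 and none was higher, and in iNKT2 cells 7 of 13 tested regions fell. Of the 9 regions, 7 lay nearest to a Dusp1 start and the others to that of Ergic1, as did 1 of the 7. An internal promoter (chr17:26508460-26508959) had values of 7.68 and 7.62 in C57BL/6 and 7.33 and 7.36 in Hivep3-/- iNKT2 libraries, where it fell by 0.30 on the log2 scale (SE 0.06, adjusted p = 0.00507). The intron described above (chr17:26532649-26533148) fell from 5.65 and 5.58 to 4.77 and 4.87 (0.80 on the log2 scale, SE 0.11, adjusted p = 0.000747). None of the Dusp1 regions reached 3-fold, and none passed in iNKT17 cells. When each library was left out, 6 to 9 of the 9 Dusp1 regions were still lower on average, and in 1 of these fits 1 other region was higher. Dusp2 had 2 regions higher and 1 lower on average at this threshold, Dusp4 had 2 higher, and Dusp6 had 2 lower.

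**Figure D3:**
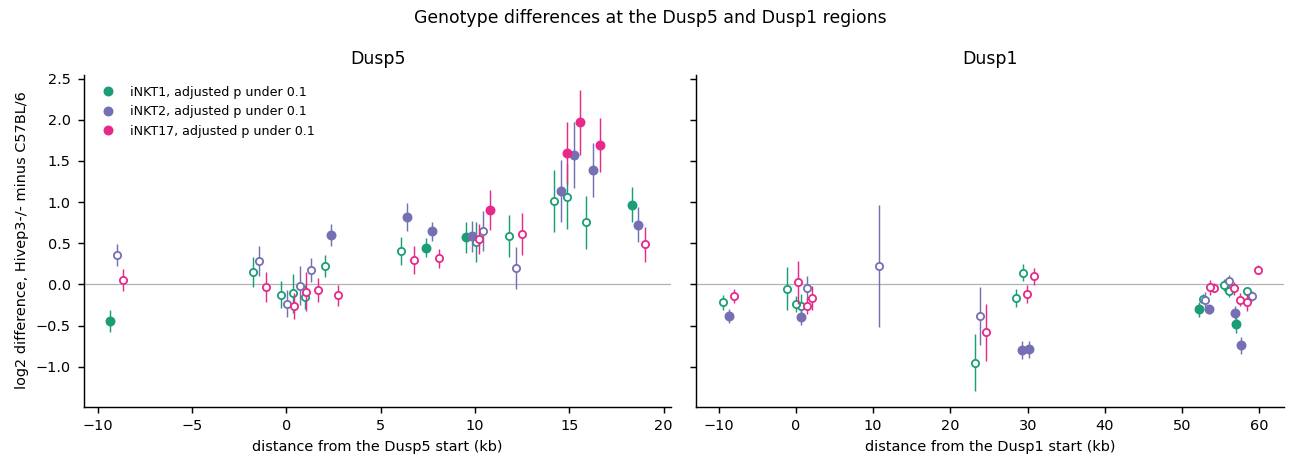
Log2 differences between Hivep3-/- and C57BL/6 libraries (y axis, with SE) of the tested regions of Dusp5 and Dusp1 by distance from the gene start in kb, for each subset; filled points have an adjusted p under 0.1. The Dusp5 values between 14 and 17 kb reach 1.97 in iNKT17 cells, and all filled Dusp1 points lie below 0.

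Ptpn5 regions were lower in Hivep3-/- cells on average over the subsets. Of the 17 regions, 9 fell at an adjusted p under 0.1 and none rose. In iNKT1 cells 3 of 13 fell, in iNKT2 cells 1 of 15 and in iNKT17 cells 4 of 9, and in iNKT2 cells the difference was positive at 5 of the 15. The internal promoter printed above (chr7:47091197-47091696) fell from 2.92 and 2.51 to 0.57 and 0.40 in iNKT17 libraries, by 2.23 on the log2 scale (SE 0.25, adjusted p = 0.00138). This call held without each of the 4 iNKT17 libraries in turn (-2.44 to -2.03) and was lost with a pseudocount of 5 (-0.86). In iNKT2 cells the values were 4.47 and 4.44 against 4.23 and 4.01, a difference of -0.33 that did not pass, and the difference between these genotype effects was 1.90 (SE 0.35, adjusted p = 0.0229), which was not called with a pseudocount of 1 or 5 (1.34 and 0.59). The promoter 20 kb from the start fell in iNKT2 cells from 2.70 and 2.47 to 0.90 and 0.35 (1.96 on the log2 scale, SE 0.47, adjusted p = 0.0183). That call was lost without C57BL/6 iNKT2 replicate 1 (adjusted p = 0.116) and without Hivep3-/- iNKT2 replicate 2. Without single libraries, 4 to 9 of the 9 regions still differed on average.

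Most Ptprj regions had genotype differences of opposite sign in iNKT1 and iNKT2 cells, but few passed in iNKT1 cells. In iNKT1 cells the difference was positive at 16 of 19 tested regions, 3 of them at an adjusted p under 0.1. In iNKT2 cells it was negative at 14 of 16, 7 of them at that threshold. The calls over all regions leaned the same way. They were 0.89% higher and 0.264% lower in iNKT1 and 0.474% higher and 1.2% lower in iNKT2 cells. The intron 117 kb from the start (chr2:90463722-90464221) had values of 0.81 and 1.07 in C57BL/6 and 2.59 and 2.99 in Hivep3-/- iNKT1 libraries, a rise of 1.85 (SE 0.59, adjusted p = 0.0898). In iNKT2 libraries it went from 3.61 and 2.94 to 0.99 and 0.55, where it fell by 2.50 on the log2 scale (SE 0.59, adjusted p = 0.0173). The region was thus higher in iNKT2 than in iNKT1 cells of C57BL/6 mice and higher in iNKT1 than in iNKT2 cells of Hivep3-/- mice, by 2.33 (SE 0.59, adjusted p = 0.00508) and 2.02 (SE 0.59, adjusted p = 0.0111). The difference between the genotype effects was 4.35 (SE 0.84, adjusted p = 0.00919), and it passed without each of the 8 libraries in turn (4.02 to 4.69). The rise in iNKT1 cells alone was lost when any 1 of its 4 libraries was left out (largest adjusted p = 0.478), with a pseudocount of 1 or 5 (1.44 and 0.79) and after the renewed quantile normalization (1.81), and the fall in iNKT2 cells was not called without C57BL/6 iNKT2 replicate 1 (adjusted p = 0.15).

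A second Ptprj region (chr2:90482506-90483005) rose in Hivep3-/- iNKT1 cells by 1.59 (SE 0.51, adjusted p = 0.0881), a call that was also lost when any 1 of the 4 libraries was left out. In iNKT2 cells 7 of 16 tested Ptprj regions fell at an adjusted p under 0.1 and none rose. Of the 7, 5 were higher in iNKT1 than in iNKT17 cells of C57BL/6 mice, as were 10 of the 17 Ptprj regions tested in that comparison. The intron 16 kb from the start fell from 4.97 and 4.94 to 3.17 and 3.49 (1.62 on the log2 scale, SE 0.26, adjusted p = 0.00197). Its iNKT1 values were 5.88 and 5.95 against 5.77 and 5.67, a difference of -0.19 that did not pass. Without Hivep3-/- iNKT2 replicate 1 the difference of -1.46 in iNKT2 cells was below 3-fold, and 2 to 4 of the 7 regions passed without single libraries.

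**Figure D4:**
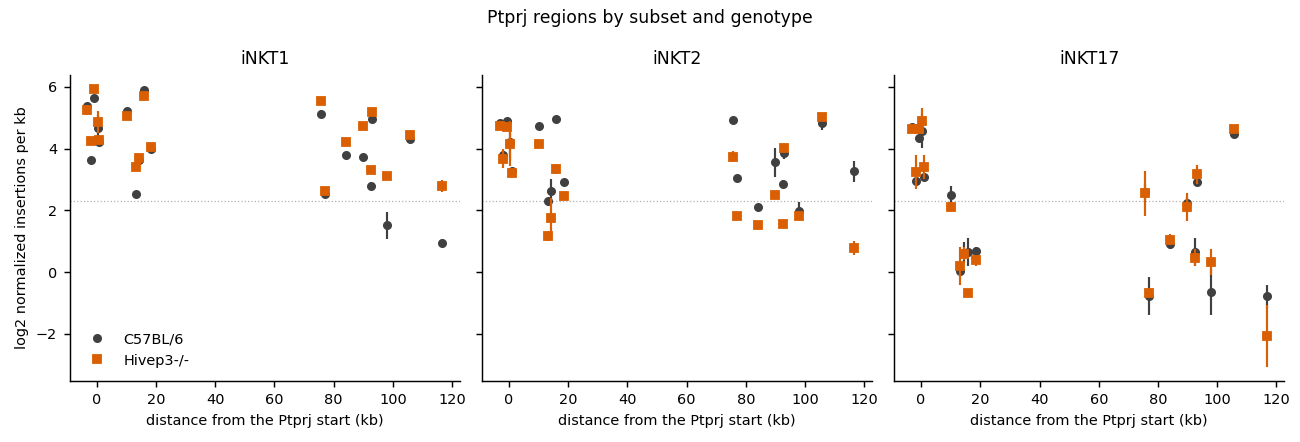
The 19 Ptprj regions by distance from the gene start (x axis, kb) and accessibility (y axis, log2 normalized insertions per kb) in each subset; symbols are means of 2 libraries, lines join the 2 values, and the dotted line is a linear value of 5. Hivep3-/- symbols lie below C57BL/6 symbols at most intronic regions in iNKT2 cells, and at 117 kb the order of the genotypes is opposite in iNKT1 and iNKT2 cells.

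A pair of Ptprb introns fell in Hivep3-/- iNKT2 cells. At chr10:116288102-116288601 the values went from 3.87 and 3.38 to 2.25 and 1.69 (1.66 on the log2 scale, SE 0.41, adjusted p = 0.0202) and at chr10:116332318-116332817 from 3.27 and 3.01 to 1.10 and 1.85 (1.66, SE 0.52, adjusted p = 0.0574). These calls were lost without 2 and 3 of the 4 libraries, C57BL/6 iNKT2 replicate 1 among them in both (largest adjusted p 0.171 and 0.265). In C57BL/6 mice, whose iNKT2 libraries both comparisons share, the first intron was higher in iNKT2 than in iNKT17 cells by 3.06 (SE 0.41, adjusted p = 3.55e-05), whereas the second had a difference of 1.03 that was not called (SE 0.52, adjusted p = 0.125).

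Some, but not all, markers of the subsets also differed between the genotypes. In iNKT2 libraries the promoters of the iNKT1 markers Nkg7 and Xcl1 stood at 4.67 to 4.82 and 3.86 to 4.12 in C57BL/6 and at 2.60 to 3.16 and 2.61 to 3.33 in Hivep3-/- mice. Tbx21 and Il2rb overlapped between the genotypes there, at 5.64 to 5.95 against 5.40 to 5.67 and at 8.64 to 8.74 against 8.71 to 8.83. The summed iNKT1 list, which Il2rb dominates, was 8.98 to 9.01 against 8.90 to 9.02. In iNKT1 libraries the summed iNKT2 list was 8.31 to 8.33 in C57BL/6 and 7.94 to 7.98 in Hivep3-/- mice, but its member Ccr7 did not fall (6.21 to 6.36 against 6.33 to 6.45). In iNKT17 libraries the summed iNKT17 list was 8.05 to 8.13 against 8.11 to 8.12. The part of cell composition and of the regions at the lowest value in the genotype results was not tested.

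The difference between genotype effects was tested across all regions for each pair of subsets. Between iNKT1 and iNKT2 cells 8 of 314 regions were called (all regions, 3.06%), 5 of them at Ptprj. For iNKT1 against iNKT17 cells 3 of 311 were called (1.42%) and for iNKT2 against iNKT17 cells 3 of 311 (1.02%). At an internal promoter of Ptpra (chr2:130540191-130540690) the effect was higher in iNKT1 than in iNKT2 cells by 1.89 (SE 0.35, adjusted p = 0.00761), a call that held without each of the 8 libraries. The Ptpn5 exon at chr7:47082975-47083474 went from 1.61 and 1.66 to 0.35 and 0.88 in iNKT1, from 2.66 and 2.57 to 3.23 and 3.27 in iNKT2 and from 4.75 and 4.94 to 3.76 and 3.94 in iNKT17 libraries. Its effect in iNKT1 cells was below that in iNKT2 cells by 1.65 (SE 0.33, adjusted p = 0.0109).

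**Figure D5:**
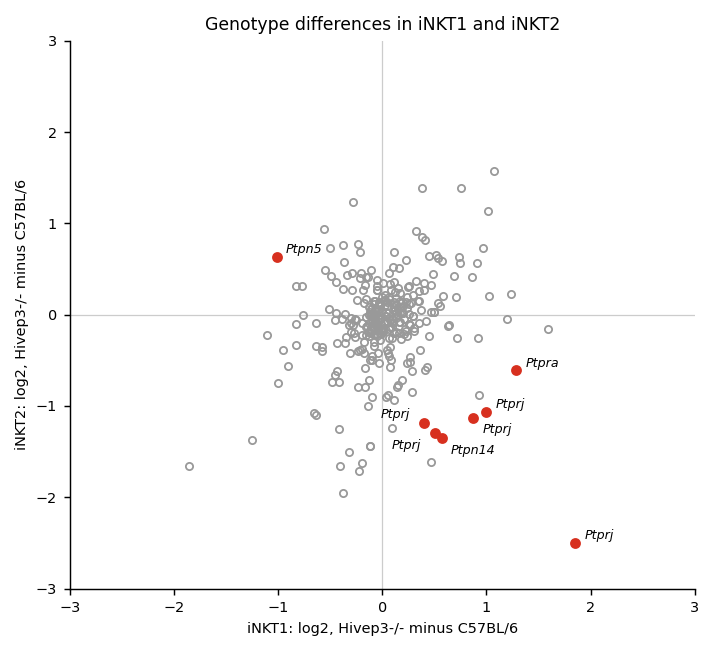
Each point is 1 of the 314 regions tested for the difference between genotype effects, by the Hivep3-/- minus C57BL/6 log2 difference in iNKT1 (x axis) and iNKT2 cells (y axis); the 8 filled points were called. All 5 filled Ptprj points lie to the right of and below 0, with the region 117 kb from the start at 1.85 and -2.50.

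The MAP kinase module, a list of 28 genes from Ras activators to kinases kept beside the phosphatases, held 162 regions. Between the genotypes 1 of 141 was higher in Hivep3-/- iNKT1 cells (all regions, 0.89%) and 4 of 148 were lower in iNKT2 cells (1.2%), with 0 of 145 called in iNKT17 cells. On average over the subsets 0 of 162 were higher and 4 lower, where 0.529% of all regions were called. Between C57BL/6 subsets 7 of 153 were higher and 9 lower in iNKT1 than in iNKT2 cells, 4 of 151 higher and 8 lower in iNKT1 than in iNKT17 cells, and 6 of 155 higher and 12 lower in iNKT2 than in iNKT17 cells. The shares of all regions were 7.33% and 8.71%, 9.72% and 10.8%, and 7.72% and 8.49%. Between Hivep3-/- subsets the counts were 15 higher and 8 lower of 152, 5 and 13 of 152, and 4 and 13 of 156 in the same order, against 8.77% and 8.54%, 9.48% and 9.83%, and 7.33% and 8.25% of all regions.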

How the data were processed

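Per the study's methods and the labels, reads were trimmed with Trimmomatic 0.39 and mapped to mm10, peaks of all libraries were merged to regions of 500 bp, and insertions were counted. As deposited, the values are log2 insertions per kb that the authors normalized with voom, and all 12 columns were mapped to libraries. Group means of the 12 libraries were fitted in limma 3.58.1 (R 4.3.3) with empirical Bayes moderation and a variance trend (6 residual and 7.17 prior degrees of freedom), over all regions. A region was tested at a linear mean of at least 5 in a compared group and called when it changed at least 3-fold with an adjusted p (Benjamini-Hochberg) under 0.1. An exact permutation test of 2 against 2 libraries cannot go below p = 0.333. Genes came from GENCODE vM21 on GRCm38.p6, coordinates are 1-based, and a promoter lies within 1000 bp of a transcription start. In data simulated from these libraries with independent normal noise, 99 of 99 regions with a mean log2 value above 4 that were changed by 2 on the log2 scale in iNKT17 cells were recovered among 63309 regions, with 2 false calls. Regions with lower means were not changed there, so recovery at regions such as the printed Ptprj region was not tested. Depth is unknown, and 2 libraries per group limit the precision.

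The genes and lists were chosen with earlier results of these data known. Named were genes of the 10 largest called rises and falls in each comparison, genes with at least 3 called regions, and Dusp1, Dusp2 and Ptpn7. Other regions described, such as the internal Dusp1 promoter, were chosen after their values were seen. Sequence was read from the genome for the largest called rise and fall between genotypes and the region most specific to each subset. The titles number mice, and libraries of a genotype with the same number were taken as 1 pool, since subsets were combined for transposition. Deviations of such libraries correlated at 0.12 to 0.167, and those of libraries with the same number that shared neither genotype nor subset at 0.0912 to 0.174. Python 3.11.15, pandas 2.3.3 and pysam 0.24.0 were used for tables and sequences. A motif and some markers of the fixed lists are not reported here.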

Additional observations from a re-analysis of the deposited data

Results flagged for a closer look

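The genotype difference departed between subsets at 12 phosphatase regions, by 14 called tests of the difference itself. In iNKT1 against iNKT2 cells the Ptprj regions at chr2:90463722, 90490654, 90567216, 90487927 and 90504775 differed by 4.35, 2.07, 2.01, 1.80 and 1.59 on the log2 scale, the Hivep3-/- minus C57BL/6 difference being higher in iNKT1 cells at each. The first 2 of these calls held without each of the 8 libraries, and the others were lost without 4 to 7 of them. In the same comparison Ptpra at chr2:130540191 differed by 1.89, Ptpn14 at chr1:189830776 by 1.92 and Ptpn5 at chr7:47082975 by -1.65. The Ptpn14 call was lost without 6 of the 8 libraries and the Ptpn5 call without 1.

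In iNKT1 against iNKT17 cells the Ptprj region at chr2:90463722 differed by 3.13, Ptpn13 at chr5:103442081 by 2.51 and Ptpn12 at chr5:21043629 by -2.41. These calls were lost without 7, 6 and 2 of the 8 libraries. In iNKT2 against iNKT17 cells Ptpn14 at chr1:189798892 differed by -2.28 and Ptpn5 at chr7:47091197 and chr7:47082975 by 1.90 and 1.63. The Ptpn14 call and the first Ptpn5 call held without each library, and the second was lost without 3.

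At Ptpn12 the iNKT17 values were -2.41 and -2.29 in C57BL/6 and -0.78 and 0.19 in Hivep3-/- libraries, all below a linear value of 5. Groups of 2 libraries are too small for a search for outlying samples.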

How the results depend on the processing

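Counts of called regions moved mainly with the constant added before the logarithm. With a pseudocount of 5 the counts were 14, 33 and 13 between C57BL/6 subsets (iNKT1 and iNKT2, iNKT1 and iNKT17, iNKT2 and iNKT17), 14, 28 and 12 between Hivep3-/- subsets, 0 between genotypes in each subset, and 1, 0 and 0 for the differences between genotype effects. With a pseudocount of 1 they were 0, 1 and 2 between genotypes in iNKT1, iNKT2 and iNKT17 cells and 5 for the effect in iNKT1 against iNKT2 cells. A renewed quantile normalization gave 0 in iNKT1 cells and 5 for the effect in iNKT1 against iNKT17 cells. Without the filter on low values 5 regions were called in iNKT1 cells (2 higher, 3 lower) and 5 for the effect in iNKT2 against iNKT17 cells. With the replicate number as a block, 5 regions were called for that effect in place of 3, and every one of the 135 named calls held.

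Without single libraries, 0 to 0 regions were called between genotypes in iNKT1, 2 to 7 in iNKT2 and 1 to 7 in iNKT17 cells and 0 to 1 on average. The counts were 40 to 45, 66 to 70 and 49 to 54 between C57BL/6 subsets, 52 to 54, 64 to 71 and 46 to 47 between Hivep3-/- subsets, and 3 to 10, 0 to 5 and 2 to 6 for the differences between effects. Of 1251 values of the named regions under alternatives, 1123 were still called, 128 were not and 0 reversed. The named regions were the largest calls in these same data, mostly between subsets. These totals therefore do not describe the genotype calls within a subset, none of which held with a pseudocount of 5. The 10 Dusp5 and 9 Dusp1 regions that differed on average at an adjusted p under 0.1 numbered the same with either pseudocount, without the filter and after the renewed normalization. Libraries with few insertions have coarse low values, so differences against closed groups are the least certain in size.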
